A study of Mus musculus with 12 samples.

Results

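The 10 genes described here are nuclear genes of mitochondrial proteins, followed in C2C12 myoblasts given high glucose, low glucose or galactose. They comprise the chaperones Hspd1, Hspe1 and Hspa9, the proteases and protease subunits Lonp1, Clpp, Clpx, Afg3l2 and Yme1l1, and the paired paralogues Chchd2 and Chchd10. They were chosen by symbol out of 26271 loci, with the deposited FPKM values and fold changes of these same libraries already known. All 10 were found, each in a locus with 1 symbol, and all 10 were tested by the authors in each of the 3 comparisons. Their levels and changes are therefore a description, and the authors' q-values give no independent support for the choice.

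C2C12 is a single established line of mouse myoblasts that can be made to fuse into muscle fibres. Cells were kept for 24 h in medium with 25 mM glucose, 5 mM glucose, or 10 mM galactose and no listed glucose, and all media contained 1 mM pyruvate, 10% serum and 1% antibiotic. PolyA RNA of 4 libraries per group was sequenced, 12 in all. The series' design text speaks of isolated muscle stem cells, whereas every sample label names C2C12, and the sample labels were followed.

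Proteins made in the cytosol enter mitochondria as unfolded chains. Hspa9 encodes the matrix HSP70 that pulls them in, and Hspd1 and Hspe1 encode the barrel and the lid of the chaperonin that folds them. LONP1 and the CLPX-CLPP pair are ATP-driven proteases of the matrix, AFG3L2 acts at the matrix side of the inner membrane and YME1L1 at the side of the intermembrane space. CHCHD2 and CHCHD10 are small proteins of the intermembrane space, and mutations in CHCHD10 cause motor neuron disease and myopathy. Mitochondrial stress is known to raise the chaperones and LONP1 through ATF4, ATF5 and CHOP (Ddit3), a programme called the mitochondrial unfolded protein response.

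Promoter sequence was examined because the members differed so widely in size of change. RefSeq windows of GRCm38.p6, from 250 bases before to 50 bases after a start site, matched 7 of the 10 genes in 8 windows. Hspa9, Afg3l2 and Chchd2 were not matched. A set of 4 motifs was searched on both strands. They were the C/EBP-ATF response element TGATGNAAN, its stricter ATF4-type form TTGCATCA, which on the other strand overlaps the first, the heat shock element core GAANNTTC, and the nuclear respiratory factor 1 site GCGCNTGCG. The windows of Chchd10 (chr10:75932880-75933179, plus strand) and Hspe1 (chr1:55087898-55088197, plus strand) are shown because they held the ATF and heat shock matches, which are in capitals.
Chchd10: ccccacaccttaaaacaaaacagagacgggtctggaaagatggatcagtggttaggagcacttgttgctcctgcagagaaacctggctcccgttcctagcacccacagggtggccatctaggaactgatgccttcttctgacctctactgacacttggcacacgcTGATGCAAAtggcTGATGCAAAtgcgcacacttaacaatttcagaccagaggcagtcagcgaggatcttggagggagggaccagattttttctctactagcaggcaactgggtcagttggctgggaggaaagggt
Hspe1: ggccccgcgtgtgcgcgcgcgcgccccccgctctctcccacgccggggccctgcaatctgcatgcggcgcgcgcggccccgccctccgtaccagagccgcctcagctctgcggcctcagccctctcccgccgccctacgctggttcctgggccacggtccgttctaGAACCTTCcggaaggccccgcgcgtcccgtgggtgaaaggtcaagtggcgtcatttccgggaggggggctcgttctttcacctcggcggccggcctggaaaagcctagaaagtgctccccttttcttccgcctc

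In Chchd10 the letters TGATGCAAA occurred in 2 copies, from -85 to -77 and from -72 to -64 relative to the RefSeq start, 4 bases apart. One or more matches to TGATGNAAN lay in 3.95% of all 32851 windows, and 2 or more separate matches in 22 windows (0.067%). TTGCATCA was found in 294 windows (0.895%), and in 2 copies in 2 windows, those of Chchd10 and of Slc7a11, which encodes the cystine transporter. Neither ATF pattern was present in the windows of Hspd1, Hspe1, Lonp1, Clpp, Clpx or Yme1l1, which says only that these letters were not in these windows.

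A single heat shock core lay between Hspe1 and Hspd1, neighbours on chromosome 1 that are read in opposite directions. It spans chr1:55088064-55088071, from -84 to -77 relative to the Hspe1 start and from -139 to -132 relative to the inner of the 2 RefSeq starts of Hspd1. The outer Hspd1 start, at position 55088243, lies 95 bases past the Hspe1 start at 55088148, so a transcript from the outer Hspd1 start runs across the core. Matches to the heat shock core pattern were present in 7.86% of all windows. In the printed Hspe1 window, ttc stands 2 bases before this core and gaa 2 bases after it. The pattern did not cover these flanking letters, and windows with the longer run were not counted. A nuclear respiratory factor 1 match was found before the outer Hspd1 start and in 2 places before Clpx, against 6.31% of all windows with at least 1. The map of motif matches shows these positions to scale.

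**Figure D1:**
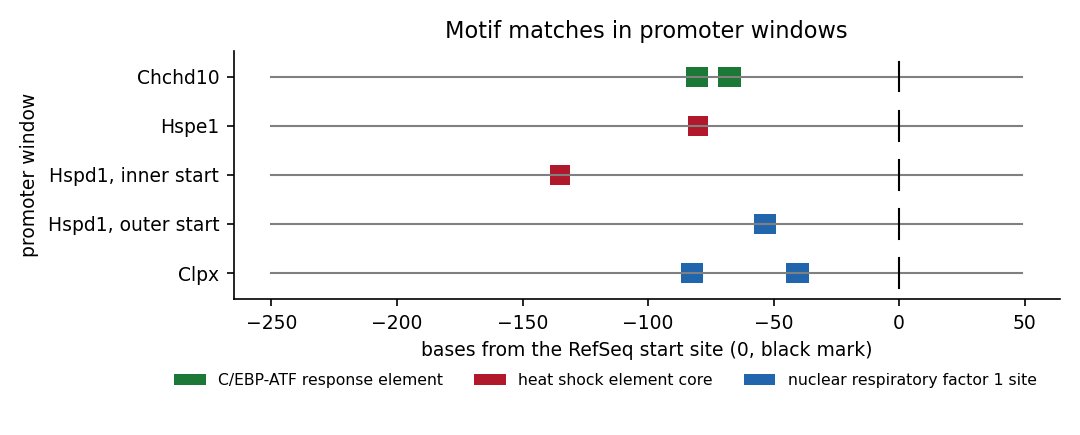
Grey lines are RefSeq promoter windows of 300 bases (x axis, bases from the start site, with the start site as a black mark), 1 row per window, and coloured boxes are motif matches on either strand drawn to scale. Chchd10 has 2 neighbouring ATF-type matches, and 1 heat shock core appears in the rows of both Hspe1 and the inner Hspd1 start.

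The authors' deposited table holds 1 pooled level per group in FPKM, a unit that scales fragments by transcript length and library size, together with the authors' Cuffdiff test for each pair of media. Levels per library were not analysed here, so no SD or n can stand beside a value and the sequencing depth is unknown. Separate cultures are not named for the 4 libraries of a medium, so the q-values may reflect technical spread alone. Called means that the authors gave a q below 0.05. Among loci of 10 to 500 FPKM with q from 0.04 to 0.06, the median absolute log2 change in the authors' deposited table was 0.17 in each of the 3 comparisons (280, 221 and 252 loci), which shows how small a change was called.

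The myoblast identity of the cells was checked against markers. The 6 myoblast markers summed to 750, 490 and 396 FPKM in high glucose, low glucose and galactose, and 5 fibroblast markers to 54.7, 34.1 and 20.3 FPKM in the authors' deposited table. Almost all of the fibroblast sum was Pdgfrb, with Thy1 and Tcf21 listed at 0. Endothelial markers summed to at most 0.188 FPKM and adipocyte markers to at most 0.531 FPKM in any group of the authors' deposited table. Of the blood markers, Adgre1 was listed at 0, Ptprc stood at no more than 0.00823 FPKM, and Cd68 shares its locus with Eif4a1 and cannot be read. Both sums were lowest in galactose, where the chaperone levels were highest, and their part in the results was not tested. In bulk RNA, fewer cells of a kind and less RNA per cell cannot be told apart.

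Across the 3 media, Hspd1, Hspa9, Lonp1 and Chchd10 were called higher at both steps, from high to low glucose and from there to galactose. Hspe1, Afg3l2 and Chchd2 were called higher in both other media than in high glucose, Clpp in low glucose, and Clpx and Yme1l1 in neither. From high to low glucose 8 of 10 members were called higher, against 18.3% of the 14699 loci tested. From high glucose to galactose 7 of 10 were called higher, against 26.5% of 14812 loci, and from low glucose to galactose 4 of 10, against 17.4% of 14495 loci. None was called lower by the authors' Cuffdiff test, against 18.2%, 24.8% and 16.0% of loci. At an unadjusted p below 0.05 in the authors' Cuffdiff test, the members higher numbered 8, 9 and 5. Those lower numbered 0, 0 and 1, the last being Yme1l1 from low glucose to galactose. The share of all tested loci at that unadjusted limit was not computed, neither here nor for the lists below. Median log2 changes of the 10 in the authors' deposited table were 0.30, 0.46 and 0.17, where all tested loci had medians of 0.0071, 0.0058 and 0.010. The 3 comparisons share their groups, so these counts are not independent of each other, and nothing is read from them about the list.

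**Figure D2:**
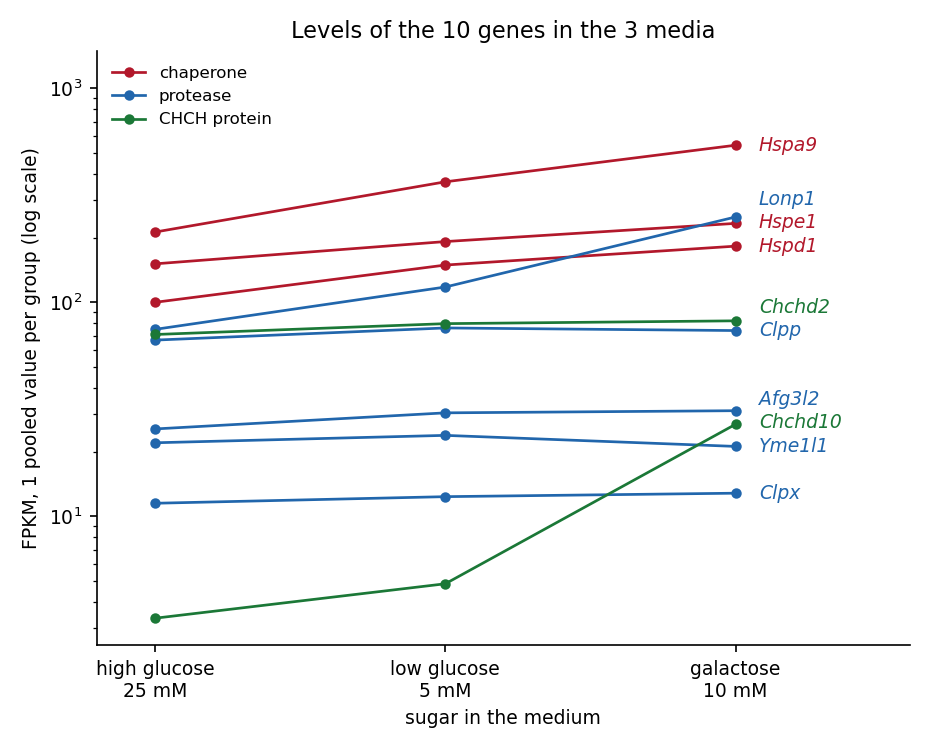
Each line is 1 gene, with its pooled FPKM per group in the authors' deposited table (y axis, log scale) in the 3 media (x axis), coloured by role. Hspa9 is the highest in every medium, from 213 to 543 FPKM, and Chchd10 goes from the lowest place, at 3.35 FPKM, to 27.0 FPKM in galactose.

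Hspa9, the matrix HSP70, was the most abundant of the 10 in every medium. It stood at 213 FPKM with high glucose, 366 FPKM with low glucose and 543 FPKM with galactose in the authors' deposited table. Both steps were called, with log2 changes of 0.78 and 0.57 and q = 0.000239 for each in the authors' deposited table. That q is the lowest the authors' table holds, and 9204 of its 44006 tests share it. High glucose to galactose amounted to a 2.55-fold rise, and low glucose already reached 57.9% of it on the log2 scale. A change larger than that of Hspa9 was listed for 221 of 13192 tested loci with at least 1 FPKM in either group. The gene lies on chromosome 18 from 34937322 to 34954731 (mm10).

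Hspd1, the barrel of the chaperonin, stood at FPKM levels of 100.2, 150 and 183 in high glucose, low glucose and galactose per the authors' deposited table. Its steps of 0.58 and 0.29 on the log2 scale were both called in the authors' deposited table (q = 0.000239 and 0.000456). Most of its rise was therefore present in low glucose, 66.3% of the log2 change to galactose. Hspe1, the lid, was listed at FPKM levels of 152, 193 and 234 per the authors' deposited table. It rose by 0.35 from high to low glucose (q = 0.0237) and by 0.63 from high glucose to galactose (q = 0.000239) on the log2 scale per the authors' deposited table. Its step from low glucose to galactose, 0.28, was nearly the size of that of Hspd1 but was not called there (q = 0.083).

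The 2 chaperonin genes thus moved in the same direction. The ratio of Hspd1 to Hspe1 FPKM was 0.661, 0.777 and 0.783 in the 3 media, and whether it differs between media was not tested. Both loci are listed with the same interval in the authors' deposited table, chromosome 1 from 55077727 to 55091494 (mm10), on opposite strands. Their annotated exons share 112 bases in GENCODE M21, 4.24% of those of Hspd1 and 7.60% of those of Hspe1. Whether the counting used strand is not given in the sources used here, so reads in that stretch cannot be told apart. GENCODE also names 5 pseudogenes of Hspd1, 6 of Hspe1 and 1 each of Hspa9 and Chchd2, and how reads shared with them were assigned is not stated.

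Lonp1, the main protease of the matrix, had the second largest rise of the 10. It went from 74.9 FPKM in high glucose to 118 FPKM in low glucose and 251 FPKM in galactose in the authors' deposited table. Unlike Hspd1, it took its larger step, 1.09 on the log2 scale, between low glucose and galactose, and 0.66 between the glucose levels (q = 0.000239 for both in the authors' deposited table). Low glucose had reached 37.7% of its log2 change to galactose, which was 3.35-fold in all. A larger one was listed for 118 of the 13192 loci. Its locus lies on chromosome 17 from 56613027 to 56627073 (mm10), and the same interval holds Rpl36. Rpl36 stood at FPKM levels of 63.3, 94.5 and 98.0 per the authors' deposited table. Its log2 changes from high glucose, 0.58 and 0.63, were not called (q = 0.681 and 0.629), nor was that from low glucose to galactose.

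CLPP is the chamber of the other matrix protease and CLPX the ring that feeds it, and neither followed Lonp1. Clpp stood at FPKM levels of 66.7, 76.0 and 73.9 in high glucose, low glucose and galactose per the authors' deposited table. It rose from high to low glucose by 0.19 on the log2 scale (q = 0.0148), and its difference of 0.15 between high glucose and galactose was not called (q = 0.0685 in the authors' deposited table). Clpx was listed at FPKM levels of 11.5, 12.4 and 12.8 per the authors' deposited table, with no comparison called (q = 0.278, 0.0751 and 0.603). The level of Clpx relative to Clpp was 0.173, 0.163 and 0.174. Lonp1 relative to Clpp went from 1.12 to 1.55 and 3.39. Transcripts of these 2 genes thus had similar levels per length in high glucose and far apart ones in galactose. Clpx, at 11.5 FPKM, stood below both already in high glucose.

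Of the inner membrane proteases, Afg3l2 was called higher in both other media and Yme1l1 in neither. Afg3l2 stood at 25.6 FPKM with high glucose, 30.5 FPKM with low glucose and 31.2 FPKM with galactose in the authors' deposited table. Its log2 changes from high glucose were 0.25 and 0.28 (q = 0.000858 and 0.000239), and low glucose to galactose added 0.03 (q = 0.737 in the authors' deposited table). Nearly all of its small rise, 88.2% on the log2 scale, was present in low glucose. Yme1l1 was listed at FPKM levels of 22.1, 23.9 and 21.3 per the authors' deposited table, the one member lower in galactose than in high glucose, and no comparison called it (q = 0.304, 0.658 and 0.0956). Its locus on chromosome 2 from 23068104 to 23199260 (mm10) also holds Acbd5, which was called lower from high glucose to galactose (log2 change -0.44, q = 0.00882 in the authors' deposited table), and Mastl, which was not called.

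Chchd10 had the largest change of the 10 and a different course. It stood at 3.35 FPKM with high glucose, 4.85 FPKM with low glucose and 27.0 FPKM with galactose in the authors' deposited table. The step from low glucose to galactose was thus by far the larger of the 2. Low glucose was higher than high glucose by 0.53 on the log2 scale (q = 0.000456), and galactose was higher than low glucose by 2.48 (q = 0.000239) in the authors' deposited table. From high glucose to galactose Chchd10 rose 8.06-fold, and low glucose held 17.8% of that log2 change. Of the 13192 tested loci, 40 had a larger one. Among loci with at least 1 FPKM, its level ranked at percentile 14.0 in high glucose and at percentile 66.2 in galactose.

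Chchd2, its paralogue, stood at FPKM levels of 70.8, 79.6 and 82.1 per the authors' deposited table. It rose by 0.17 and 0.21 on the log2 scale from high glucose (q = 0.0407 and 0.00781), about the size at which calls begin, and low glucose to galactose was not called (q = 0.665 in the authors' deposited table). The ratio of Chchd10 to Chchd2 FPKM went from 0.0472 in high glucose to 0.0609 in low glucose and 0.329 in galactose. Chchd2 transcripts thus remained the more abundant of the pair per length in all 3 media.

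The Chchd10 locus of the table begins inside the annotated gene and runs past its GENCODE end at 75937747. It is listed on chromosome 10 from 75935414 to 75940455 (mm10), 2284 bases past the RefSeq start whose promoter holds the ATF-type matches. This position is 1 base before exon 2 of the 5-exon GENCODE transcript that begins at that start, and 159 bases before exon 1 of a 4-exon transcript. Exon 1 of the longer transcript is outside the listed interval, and which start the cells used cannot be told from FPKM. The same interval holds a second locus with no symbol, at FPKM levels of 0.550, 0.911 and 4.78 per the authors' deposited table. Its level was 0.164, 0.188 and 0.177 of that of Chchd10 in the 3 media, and it was called higher in galactose than in either glucose medium. Exons of Chchd10 share 155 bases (9.84%) with Mmp11 and 25 bases (1.59%) with Gm867 on the other strand. As strand handling is not given, reads in those stretches cannot be told apart.

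**Figure D3:**
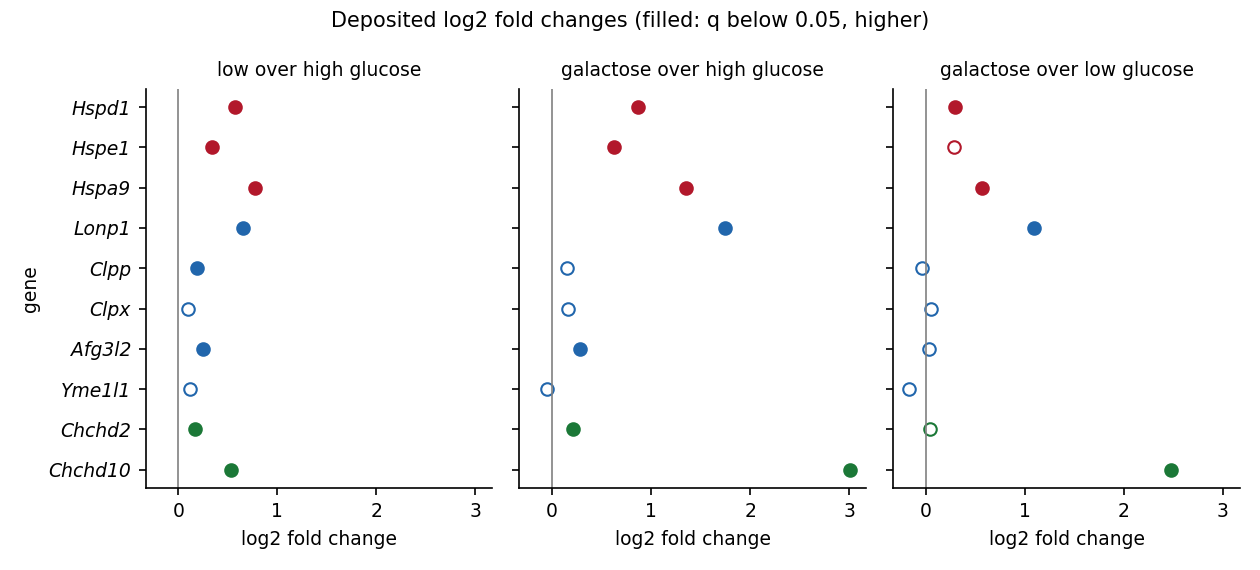
Points are the log2 fold changes of the 10 genes in the authors' deposited table (x axis) for each pair of media (panels), filled where the authors' q was below 0.05 and the gene was higher. Chchd10 and Lonp1 lead the galactose panels at 3.01 and 1.74 over high glucose, whereas Hspa9 leads from high to low glucose at 0.78.

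The order of sizes differed between the 2 steps. From high to low glucose it ran from Hspa9 (0.78) through Lonp1 (0.66) and Hspd1 (0.58) to Chchd10 (0.53) on the log2 scale of the authors' deposited table. Between low glucose and galactose, Chchd10 (2.48) and Lonp1 (1.09) stood first and then Hspa9 (0.57) in the authors' deposited table. Whether these orders differ beyond error could not be tested on pooled values. Relative to all loci of at least 1 FPKM, the change to galactose of Clpx and Clpp ranked at percentiles 63.5 and 62.6, and that of Yme1l1 at 41.0.

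**Figure D4:**
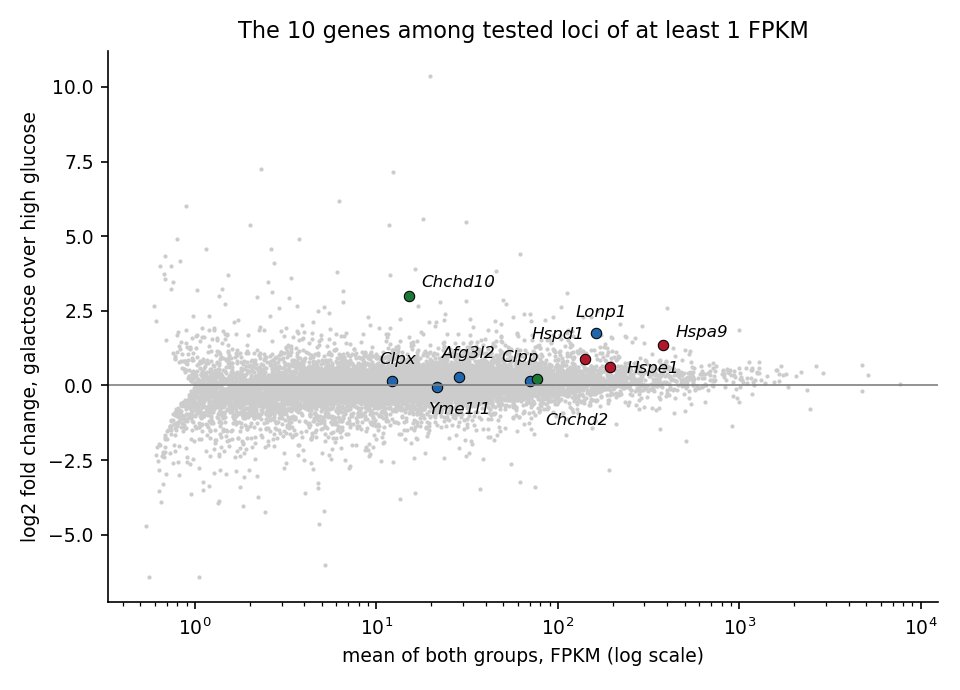
Grey points are the tested loci with at least 1 FPKM in either group and a finite fold change, by mean FPKM of both groups (x axis, log scale) and log2 fold change from high glucose to galactose (y axis), and coloured points are the 10 genes (red chaperones, blue proteases, green CHCH proteins). Lonp1 and Hspa9 stand above most loci of like level, while Clpx and Yme1l1 lie near 0.

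A further 4 lists of other mitochondrial genes and 3 of related stress and folding genes place the members among their partners. Partners of the matrix chaperones had smaller log2 changes to galactose than Hspa9, at most 0.83. Of 12, 5 were called higher and none lower from high glucose to galactose (7 and 1 at an unadjusted p below 0.05), with a median log2 change of 0.20. In that comparison 26.5% of all tested loci were called higher and 24.8% lower. Dnaja3, the J-domain partner of HSPA9, rose in both steps, at FPKM levels of 23.4, 31.2 and 41.6 per the authors' deposited table. Trap1, the matrix HSP90, also rose in both, at FPKM levels of 51.7, 61.3 and 76.9 per the authors' deposited table. Grpel1, the nucleotide exchange factor of HSPA9, was listed at 21.4, 23.5 and 24.7 FPKM, with a called log2 change of 0.21 from high glucose to galactose (q = 0.0307 in the authors' deposited table). The ratio of Hspa9 to Grpel1 went from 9.97 to 15.6 and 21.97. From high to low glucose 3 of the 12 were called higher and 2 lower, near the 18.3% and 18.2% of all tested loci, so nothing is read from these counts. Grpel2, among the higher ones, shares its locus with Pcyox1l and cannot be read alone. The lower ones, named after their values were seen, were Dnajc28 and Hscb, a J-protein of iron-sulphur cluster assembly. Their log2 changes were -0.57 and -0.29 in the authors' deposited table. Dnajc28 stayed below 1 FPKM in every medium (0.348, 0.235 and 0.258 FPKM). Hscb stood at 11.2, 9.21 and 13.0 FPKM and was called higher from low glucose to galactose (q = 0.000239 in the authors' deposited table).

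A list of other mitochondrial proteases and their scaffolds also held Lactb2 and Prelid1, which are neither. From high to low glucose 6 of its 19 loci were called higher, Lactb2 among them, and 1 lower. The background shares at that step, over every tested locus, were 18.3% higher and 18.2% lower. From high glucose to galactose the list had 10 of 19 higher, again with Lactb2, and 1 lower, beside background shares of 26.5% and 24.8%. Whether the list departs from the background was not tested. The median log2 change of the 19 to galactose was 0.24. Pitrm1, which degrades presequences, rose from 39.6 FPKM with high glucose to 61.5 FPKM with galactose, and Phb2, a prohibitin of the inner membrane that associates with AFG3L2, went from 227 FPKM to 323 FPKM in the authors' deposited table. Immp2l, an inner membrane peptidase gene, had the largest log2 change of the list, 0.79, 1.12 FPKM against 1.94 FPKM in the authors' deposited table. Spg7, the subunit that joins AFG3L2 in a mixed complex, fell by 0.33 and 0.35 on the log2 scale in low glucose and galactose, at FPKM levels of 34.7, 27.5 and 27.3 per the authors' deposited table. The level of Afg3l2 relative to Spg7 was 0.739 with high glucose, 1.11 with low glucose and 1.14 with galactose. Oma1, the stress protease of the inner membrane, and Htra2, a protease of the intermembrane space, were not called in any comparison. Their FPKM values were 7.44, 6.83 and 6.50 for Oma1 and 63.6, 72.8 and 75.1 for Htra2 in the authors' deposited table.

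Relatives of CHCHD10 with the same twin-cysteine fold had smaller changes. Of 19 relatives, 5 were called higher in low glucose, and 6 were called higher and 3 lower in galactose, with log2 changes to galactose from -0.60 to 0.70 in the authors' deposited table. Of all tested loci, 18.3% were called higher in low glucose, and 26.5% higher and 24.8% lower in galactose, so the counts for galactose are near or below the background, and nothing is read from them. The 3 lower ones were Cmc2 and, named after their values were seen, Uqcrh and Cox19. Chchd4, the receptor that brings such proteins into the intermembrane space, rose the most, from 24.5 FPKM over 34.4 FPKM to 39.8 FPKM in the authors' deposited table. Chchd1, of the mitochondrial ribosome, rose from 56.9 FPKM to 78.7 FPKM with galactose, and Cmc2, which helps to assemble cytochrome oxidase, fell from 18.8 FPKM to 12.4 FPKM per the authors' deposited table. Of the cristae complex, Chchd3 rose to galactose by 0.31 on the log2 scale and Chchd6 was not called (18.1, 18.0 and 18.7 FPKM in the authors' deposited table).

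Import genes were called higher in 13 of 26 cases in low glucose and in 17 of 26 in galactose against high glucose, none lower in either. Of all tested loci 18.3% and 26.5% were called higher in these comparisons. Tomm40, counted as higher in both, shares its locus with Apoe. Timm44 and Pam16, called in neither, share theirs with Ctxn1 and Coro7, so such values cannot be read for the import gene alone. From low glucose to galactose 5 of 26 were called higher, near the 17.4% of all loci. Timm8a1, Timm9 and Timm10, small chaperones that carry membrane proteins across the intermembrane space, rose most, with log2 changes to galactose of 1.17 for Timm8a1, 0.84 for Timm10 and 0.78 for Timm9 in the authors' deposited table. Like Hspd1, they took most of the rise in low glucose, with 0.95 for Timm8a1, 0.62 for Timm10 and 0.64 for Timm9 on the log2 scale of the authors' deposited table. At an unadjusted p below 0.05, 0 import genes were lower in both of these comparisons.

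Atf4, Atf5, Ddit3 and Ppp1r15a of the stress programme rose at both steps. Atf4 stood at 294, 437 and 585 FPKM, and Atf5, a factor that directs chaperone and Lonp1 transcription, at FPKM levels of 111, 228 and 355 per the authors' deposited table. Ddit3 went from 48.2 to 86.4 and 156 FPKM, and Ppp1r15a, whose product ends the stress response, from 17.6 to 24.2 and 48.7 FPKM in the authors' deposited table. Hsf1, the heat shock factor, was not called between the glucose levels (57.1 and 62.9 FPKM, q = 0.481) and rose to 80.0 FPKM in galactose (the authors' deposited table). Of the 13 regulators 8 were called higher and 1 lower in galactose against high glucose, beside 26.5% and 24.8% of all tested loci. The lower one was Eif2ak3, the reticulum stress kinase, named after its values were seen.

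Most cytosolic chaperones were called higher in galactose, as Hspd1, Hspe1 and Hspa9 were, and most chaperones of the endoplasmic reticulum were called lower. Among the 12 partners of the matrix chaperones, only 5 were called higher. Of 22 cytosolic ones, 17 were called higher and 2 lower in galactose against high glucose (Hspa1b and, named after its values were seen, Bag3). All 8 subunits of the cytosolic chaperonin were called higher in both comparisons with high glucose. Of all tested loci, 26.5% were called higher and 24.8% lower in galactose against high glucose, and 18.3% higher in low glucose. Cct4 and Cct2 rose by 0.69 and 0.58 on the log2 scale per the authors' deposited table. Hspa1b, an inducible HSP70 gene, fell from 25.2 to 15.6 and 9.81 FPKM in the authors' deposited table, although reads shared with its near-identical copy Hspa1a make both uncertain. Hspa8, the constitutive cytosolic HSP70, was not called between the glucose levels and rose in galactose by 0.21 on the log2 scale against high glucose in the authors' deposited table. Of 14 chaperones of the endoplasmic reticulum, 1 was called higher (Hyou1, named after its values were seen) and 10 lower in galactose against high glucose, the latter led by Sdf2l1, Creld2 and Calr at -1.21, -0.72 and -0.61 on the log2 scale of the authors' deposited table. Manf, among those called lower, shares its locus with Rbm15b and cannot be read alone. Hspa5, the reticulum HSP70, stood at FPKM levels of 364, 306 and 371 per the authors' deposited table. Hspa9 relative to Hspa5 accordingly went from 0.586 in high glucose to 1.20 in low glucose and 1.46 in galactose.

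**Figure D5:**
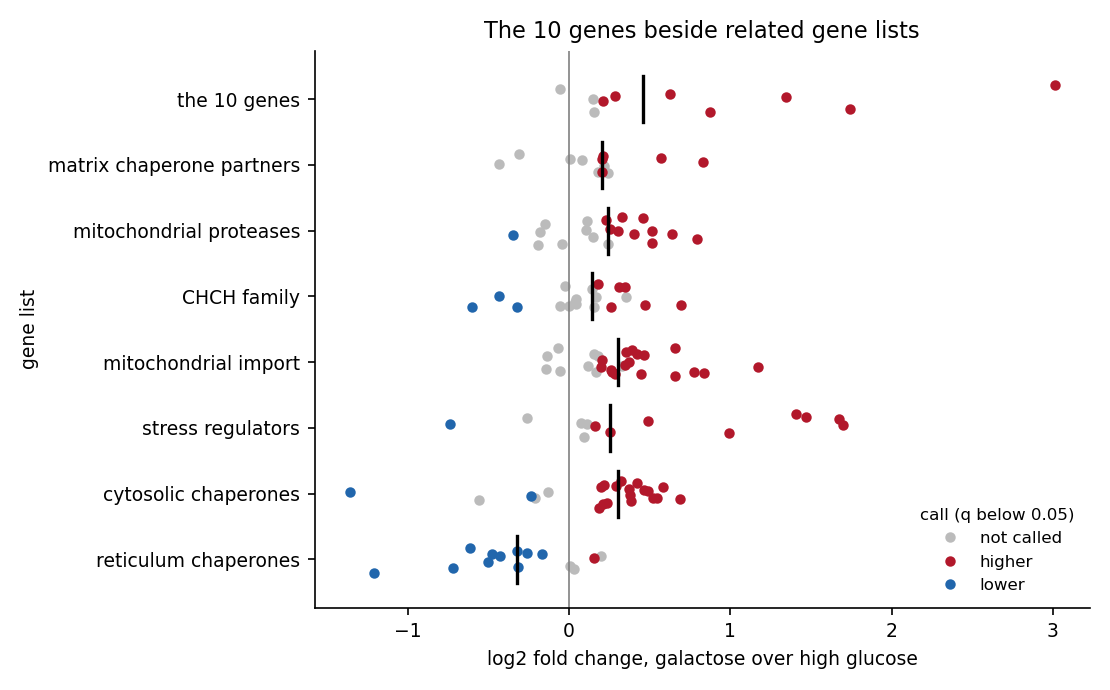
Each point is 1 locus by its log2 fold change from high glucose to galactose in the authors' deposited table (x axis), in rows by gene list and with the call as colour and the list's median as a black bar. The 10 genes have a median of 0.46 and reach 3.01 with Chchd10, and the median of the reticulum chaperones is -0.32.

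The loci most like Chchd10 and Hspd1 were sought among 7645 loci tested in all comparisons with a mean of at least 5 FPKM, by the distance between their 2 log2 changes from high glucose. Closest to Chchd10 were Slpi, Gadd45a, Gsta4, Gch1 and Prl2c2, at distances from 0.23 to 0.84, with the next nearest after Slpi at 0.58. Slpi, a secreted protease inhibitor, stood at FPKM levels of 1.66, 2.37 and 11.4 per the authors' deposited table. Closest to Hspd1 were Wdr67, Eif2b3, Llph, Rbm17 and Eif1ad, at distances of 0.010 to 0.024. This likeness rests on 3 pooled values. No ATF-type match was found in the promoter windows of Slpi, Gadd45a or Gch1, and Gsta4 and Prl2c2 had no window.

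The promoter motif of Chchd10 was set beside expression over all single-symbol loci with a promoter window and at least 1 FPKM. Of 7640 such loci 2214 (29.0%) were called higher in galactose, and of the 54 with TTGCATCA 29 (53.7%) were, with a median log2 change of 0.31 against 0.0062 in all. With the wider pattern TGATGNAAN, by which the Chchd10 copies were described, 72 of 197 loci (36.5%) were called higher, with a median of 0.059, much nearer to all loci. Slc7a11, which shares paired copies of TTGCATCA with Chchd10, was called higher at both steps, at FPKM levels of 4.26, 7.00 and 16.3 per the authors' deposited table. Of the 4 loci with 2 or more copies of TGATGNAAN, 2 were called higher in galactose, Chchd10 among them. For the heat shock core the called share was 26.4% of 519 loci. These shares are descriptions, and a match in a window is not a site shown to be bound.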

How the data were processed

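PolyA RNA of 12 C2C12 samples was sequenced, 4 per medium, and groups were taken from the sample titles. The authors' tools, per the submitters' processing notes, were TopHat2 2.0.10, Cufflinks 2.2.0 and Cuffdiff, with mm10 as the build. Settings, strand handling and normalization between libraries are not given in the sources used here. The deposited table holds FPKM, 1 pooled value per group, for 26271 loci. Log2 fold changes in the deposited table compare 2 group values, and the deposited test score was not used for any result. Among tests the deposited p-value is not below 5e-05. The deposited q-value equals a Benjamini-Hochberg adjustment over all 44006 tests (largest gap 5.3e-07). No test was refitted, and depth is unknown.

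Where several loci bore a symbol, that of the highest summed FPKM was taken. A gene was called at the authors' q below 0.05. The members and all lists were chosen with earlier results of these data known. Named genes were the 10 members, the 3 largest called changes per list and a fixed set of partners. List genes not found by symbol were looked up by older symbols: Atp23 and Dele1 were read this way, and Cmc4 was not found. Start positions were raised by 1. Exons came from GENCODE M21 and promoters from RefSeq, both of GRCm38, the assembly behind mm10. The adjustment and the motif search were tested on simulated data. Alternatives were q below 0.01, an absolute log2 change of at least 0.5, adjustment within each comparison, no loci of several symbols, at least 1 FPKM, a pseudocount of 1 FPKM and re-centring. Python 3.11.15, pandas 2.3.3, numpy 2.4.6 and matplotlib 3.10.9 were used.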

Additional observations from a re-analysis of the deposited data

How the results depend on the processing

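From high to low glucose the 8 members called higher became 5 at q below 0.01, where Hspe1, Clpp and Chchd2 were lost, and 4 at an absolute log2 change of at least 0.5, where Hspe1, Clpp, Afg3l2 and Chchd2 were lost. In both cases the reason is the stricter limit itself. The share of all tested loci called was not computed at either stricter limit, so nothing is read from these counts against the background. The limit of 0.5 also took away Afg3l2 and Chchd2 from high glucose to galactose (7 to 5 members) and Hspd1 from low glucose to galactose (4 to 3 members), so Hspd1 was then called at the first step alone. Both of these counts, and the rest of the 37 other recomputed counts and medians over the members, stayed within 1.5 times the reported value, and none of the 60 recomputed log2 changes of single members turned its sign with a pseudocount of 1 FPKM or with re-centring. No paired analysis was possible because the deposited table has 1 pooled value per group. For the same reason no library could be left out in turn, and the share of the results that rests on any 1 library is unknown.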
